A study of Phaseolus vulgaris with 18 samples.

Results

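DMP2 (Phvul.006G158800) is a membrane protein gene that was low in young pods of the common bean, Phaseolus vulgaris, and high in most older ones. It is 1 gene of the 27420 in the deposited table, and it was followed through all 18 libraries. The gene was chosen by its levels in pods at 20 against 10 DAF, read here as days after flowering, so its pod levels below are a description and carry no test. The study sequenced RNA from grain and from pod, the fruit wall around the grains, at 10, 15 and 20 DAF, with 3 libraries in each of the 6 groups. All groups came from plant material that the titles name 4004, and no treatment, mutation or transgene is given for any of them. Whether replicates are different plants is not stated in the labels. The p-values therefore reflect the spread among libraries alone, which may be technical. In whole tissue, fewer cells of a type and less RNA per cell cannot be told apart.

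DMP proteins are small membrane proteins found in plants that share the DUF679 domain, a domain named before its function was known. In Arabidopsis, DMP1 sits in the membranes of the endoplasmic reticulum (ER) and of the vacuole, and making too much of it reshapes these membranes. Several Arabidopsis family members are expressed where tissues age, shed organs or split open, and others act in sperm cells at fertilization. A bean pod ages while its grains fill, breaks down chlorophyll and passes nutrients on, so genes of ageing, self-digestion, cell death and pod opening are set beside DMP2 below.

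At 10 DAF DMP2 was low in pods, at or above 28.8% to 52.4% of all genes. Its level in TPM, a length-corrected share among all transcripts of a library, was 4.77, 0.283 and 0.648 in the pod libraries c1, c2 and c3, which are named by column because the columns are numbered 1 to 3 and the titles 3 to 5. Replicates 1, 2 and 3 of 15 DAF had 242.7, 54.8 and 10.7 TPM. At 20 DAF it was 490.5, 67.0 and 166.9 TPM. Every pod library at 15 and 20 DAF lay above every pod library at 10 DAF, while the later stages overlapped each other widely. The means were 1.90 ± 2.49 TPM at 10 DAF, 103 ± 123 TPM at 15 DAF and 241 ± 221 TPM at 20 DAF (SD, n = 3). On the log2 scale of group means plus 1 TPM, the difference from 10 DAF was 5.16 at 15 DAF and 6.38 at 20 DAF, and 20 DAF lay 1.22 above 15 DAF.

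**Figure D1:**
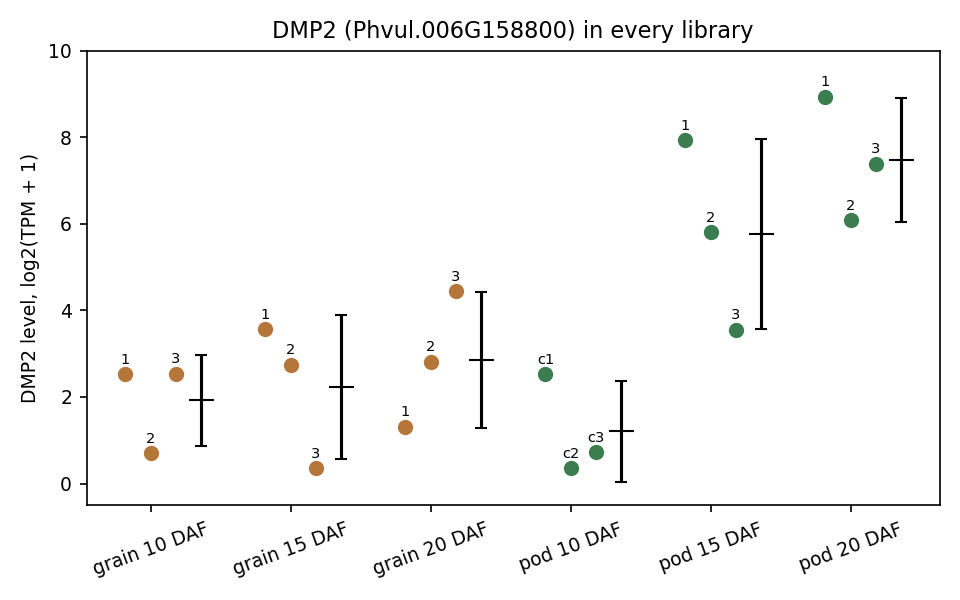
DMP2 level on the log2(TPM + 1) scale, 1 point per library, labelled by replicate or column, with grain in brown and pod in green. Bars give the mean ± SD of the 3 log2 values of each group. The 3 pod libraries at 10 DAF lie below all pod libraries of 15 and 20 DAF, and grain libraries stay between 0.281 and 20.7 TPM.

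The place of DMP2 within each library followed the same course and does not depend on the scale of a column. It ranked between 13051 and 19518 among the 27420 genes in pods at 10 DAF. At 15 DAF it ranked 641, 2748 and 6505 in replicates 1 to 3, and at 20 DAF it ranked 231, 2558 and 1027. In pod 20 DAF replicate 1 it therefore stood at or above 99.2% of all genes. The values of pod 15 DAF replicate 3, the lowest library of its stage, summed to only 436072 TPM, against 823001 to 999633 TPM in the other 17 libraries. With every column rescaled to the same sum, DMP2 in that library was 24.6 TPM, still the lowest of its stage and still above all pods at 10 DAF.

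Libraries of 1 group differed in DMP2 more than in most genes. The highest pod library was 22.6 times the lowest at 15 DAF and 7.32 times the lowest at 20 DAF. Among genes with a mean log2 level within 0.5 of that of DMP2 in the same group, between 93.9% (pod 10 DAF) and 99.7% (pod 15 DAF) had a smaller SD of log2 values than DMP2. In all 6 groups, grain included, DMP2 was thus among the more variable genes of its level.

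In grain, which the choice of the gene did not use, DMP2 stayed at or below 20.7 TPM and no change passed the test. Grain of 10 DAF had 4.77, 0.628 and 4.81 TPM. Grain of 15 DAF had 10.9, 5.70 and 0.281 TPM, and the libraries of 20 DAF had 1.48, 6.02 and 20.7 TPM. In these TPM values the groups overlapped at every stage, and the highest value of all was grain 20 DAF replicate 3. By its place within each library, DMP2 stood at or above 34.5% to 51.3% of all genes in grain at 10 DAF. That place was 34.6% to 77.2% at 15 DAF and 57.0% to 87.7% at 20 DAF, so grain of 10 and 20 DAF did not overlap by rank. A call required an adjusted p under 0.05 together with a log2 difference of 1 or more, in a limma fit to the 19861 genes kept by a filter on low values. From 10 to 20 DAF DMP2 differed by a log2 of 0.93 (SE 1.05, limma adjusted p = 0.450), from 10 to 15 DAF by 0.30 (SE 1.05, limma adjusted p = 0.847) and from 15 to 20 DAF by 0.63 (SE 1.05, limma adjusted p = 0.804). Of all genes tested, 55.6%, 36.4% and 5.94% were called in these comparisons. From 10 to 20 DAF 52.9% of all genes tested were called lower and 2.67% higher. The median log2 difference of all genes from 10 to 20 DAF in grain was -1.08. It was -0.10 after median-ratio scaling, which takes out most of such a shift by construction, and DMP2 then differed by 1.94 (limma adjusted p = 0.148). On that scale DMP2 was 0.505 to 3.59 TPM in grain of 10 DAF and 3.79 to 33.6 TPM in grain of 20 DAF, without overlap. The standard errors leave room for changes of several-fold in either direction.

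Ordered by mean level, the groups ran from pod 20 DAF over pod 15 DAF, grain 20 DAF at 9.40 ± 10.0 TPM, grain 15 DAF at 5.62 ± 5.29 TPM and grain 10 DAF at 3.40 ± 2.40 TPM down to pod 10 DAF. Each group overlapped its neighbour in that order. Pod and grain overlapped at 10 and at 15 DAF, and at 20 DAF the lowest pod library, at 67.0 TPM, lay above the highest grain library, at 20.7 TPM. Pod 15 DAF overlapped grain only through its replicate 3, at 10.7 TPM. With columns rescaled to the same sum that library, at 24.6 TPM, lay above all grain. It ranked 6505, behind grain 15 DAF replicate 1 at 6264, and these 2 libraries had 15.6 and 15.9 TPM after median-ratio scaling. On the log2 scale of group means plus 1 TPM, pod minus grain was -0.60 at 10 DAF, 3.97 at 15 DAF and 4.54 at 20 DAF.

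DMP2 was the dominant gene of its family in older pods. The descriptions name the DUF679 domain in 9 genes, 3 of them as DMP2. Only 3 of the 9 passed the filter of at least 1 TPM in at least 3 libraries: Phvul.006G158800, Phvul.006G181900 and Phvul.003G098400. Of the other 6, Phvul.008G040400 and Phvul.011G115500 were listed at 0 in every library, and Phvul.002G232400 was the highest, at up to 1.02 TPM. Phvul.006G158800 gave 95.0% to 96.2% of the summed TPM of the 9 genes in pods at 20 DAF. Its share was 81.8% to 89.4% in pods of 15 DAF, and 15.2% to 69.7% in the youngest pods. How similar the copies are was not measured here, so reads shared between them cannot be told apart from reads of their own.

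The relative Phvul.006G181900, described only by its DUF679 domain, also rose in pods. It was 1.71, 0 and 0 TPM in pods at 10 DAF, 27.4, 9.88 and 1.36 TPM at 15 DAF, and 22.4, 2.29 and 8.55 TPM at 20 DAF. Replicate 1 was the highest library at both later stages, and the lowest library of 15 DAF lay below the highest of 10 DAF. The log2 difference was 2.69 (SE 0.70) at 20 against 10 DAF, with a limma adjusted p of 0.0143, and 2.69 (SE 0.70) at 15 against 10 DAF, with a limma adjusted p of 0.0249. Of all genes tested, 12.1% were called at 20 DAF (5.38% higher and the rest lower) and 6.76% at 15 DAF (1.51% higher). The first call was lost without pod 10 DAF c3, without pod 20 DAF replicate 1 and in a fit of only these 6 libraries (limma adjusted p = 0.0604, 0.0878 and 0.0669). The second was lost without pod 10 DAF c2 or c3, without pod 15 DAF replicate 1 or 2 and with no filter (limma adjusted p = 0.0621, 0.0914, 0.0978, 0.0822 and 0.0563).

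In grain Phvul.006G181900 ranged from 0 to 1.34 TPM, and neither change from 10 DAF passed (log2 difference 0.46 at 20 DAF and 0.56 at 15 DAF, SE 0.70 for both, limma adjusted p = 0.588 and 0.534). Grain minus pod was -2.13 at 15 DAF and -2.25 at 20 DAF (log2, SE 0.70, limma adjusted p = 0.0179 and 0.00809). Of all genes, 39% were called at 15 DAF (30.1% lower in grain) and 62.9% at 20 DAF (56.7% lower in grain). The call at 15 DAF was lost without pod 15 DAF replicate 1 (-1.31, limma adjusted p = 0.151) or replicate 2 (-1.997, limma adjusted p = 0.0572), and with a pseudocount of 0.1 TPM (limma adjusted p = 0.0568). The call at 20 DAF was lost without pod 20 DAF replicate 1 (-1.56, limma adjusted p = 0.0569) and after median-ratio scaling (-1.33, limma adjusted p = 0.0855). At 10 DAF grain minus pod was -0.01 (limma adjusted p = 0.994), where 34.6% of all genes were called. From 10 to 20 DAF the gene changed in pod by a log2 of 2.24 more than in grain (SE 0.99, limma adjusted p = 0.0598), which missed the threshold. The median of all genes in this test was 1.25, and after median-ratio scaling, where that median was 0.13, the gene differed by 1.27 (limma adjusted p = 0.304). With deposited values it passed without pod 10 DAF c1, pod 15 DAF replicate 1 or 3 or pod 20 DAF replicate 2 (limma adjusted p = 0.0338, 0.0349, 0.0236 and 0.0128). It also passed on the groups compared alone and with columns rescaled to the same sum (limma adjusted p = 0.0355 and 0.0385). In 20 of 26 alternatives it did not pass. With all libraries and deposited values 56.5% of all genes were called in that test, 52.8% with the larger change in pod and 3.69% in the other direction.

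Within pods of 15 and of 20 DAF the libraries of both genes stood in the same order, but the levels were not in a fixed ratio. Of all genes kept, 18.0% had the library order of DMP2 in both stages. DMP2 was 5.55 to 8.88 times Phvul.006G181900 in the libraries of pod 15 DAF and 19.5 to 29.3 times in those of pod 20 DAF. The ratios of these stages did not overlap. With the mean of each stage removed, the log2 levels of both genes had a Pearson r of 0.987 over the 9 pod libraries, which share depth and column scale within a library. The median of this r over all genes with a group mean of at least 5 TPM was 0.49. The r is a description, and no link between both genes is read from it.

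**Figure D2:**
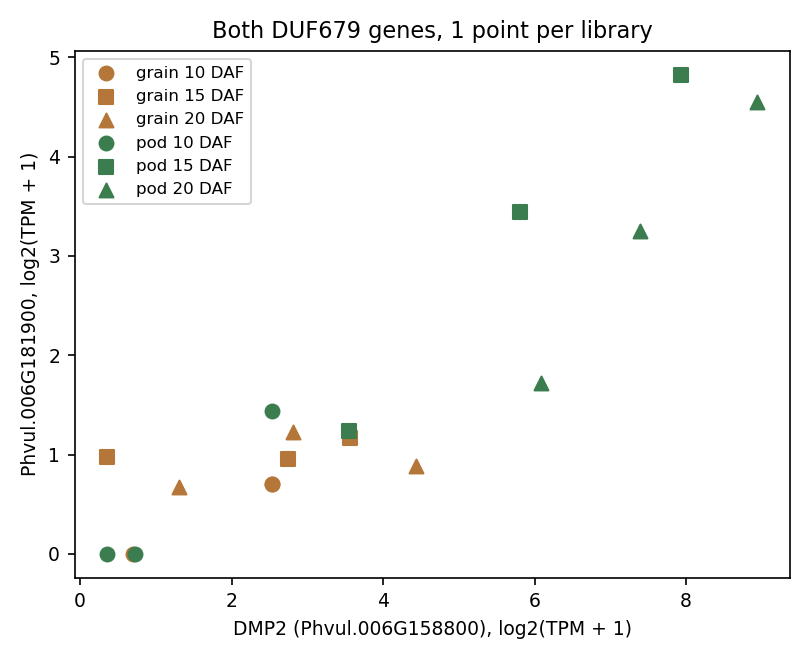
Levels of DMP2 (horizontal axis) and of the related gene Phvul.006G181900 (vertical axis), both on the log2(TPM + 1) scale, 1 point per library, coloured by tissue and shaped by stage. Pod libraries of 15 and 20 DAF reach the upper right, while all grain libraries stay below 1.34 TPM on the vertical axis.

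The third expressed member, Phvul.003G098400, is described as DMP2 too, and it did not share the rise. It was 0.290, 1.58 and 1.60 TPM in pods at 10 DAF, 0.408, 1.495 and 0.556 TPM at 15 DAF, and 0.281, 0.118 and 0.185 TPM at 20 DAF. Its values at 20 DAF were all lower than those at 10 DAF, with a log2 difference of -0.78 (SE 0.26, limma adjusted p = 0.0592) that did not pass. Without pod 10 DAF c1 the difference was -1.12 and passed (limma adjusted p = 0.00703). The gene reached 1 TPM in only 3 libraries, pod 10 DAF c2 and c3 and pod 15 DAF replicate 2. It was thus kept through the groups where it was high, and leaving out any of these libraries removed it from the fit. Its values are near the floor, so nothing is read from its tests. The difference at 15 against 10 DAF was -0.22 (limma adjusted p = 0.711). In grain it was 0.330 TPM in 1 library at 10 DAF and listed at 0 in the other 8.

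Which other genes followed DMP2 was measured by the Pearson r of log2(TPM + 1), over all 18 libraries and over the 9 pod libraries. It was computed for 14081 described genes with a group mean of at least 5 TPM. These r are descriptions of libraries that share tissue, stage, depth and column scale. Over the 9 pod libraries 84 of the described genes, 0.597%, reached r = 0.9, and the median over all 16307 genes of that level was 0.22. The 8 genes with the highest r of each measure gave 15 genes, since ANAC087 was in both.

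Over pods, the closest was the AT-hook gene AHL1 (Phvul.003G216000), of a family of nuclear DNA-binding proteins, at r = 0.980. It was 4.66, 2.26 and 3.10 TPM in pods at 10 DAF, 22.7, 15.6 and 4.17 TPM at 15 DAF, and 25.6, 14.2 and 19.5 TPM at 20 DAF. Its levels thus followed the library order of DMP2 within both later stages, over a much smaller range. Of all genes kept, 18.0% had that order in both stages. The likeness did not extend to grain, where AHL1 averaged 12.7 ± 4.72, 12.7 ± 6.27 and 21.0 ± 5.65 TPM at 10, 15 and 20 DAF. Pods of 20 DAF averaged 19.8 ± 5.71 TPM, and r over all 18 libraries was 0.66.

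A gene of the ribonuclease T2 family (Phvul.002G084500), enzymes that break down RNA in vacuoles or outside the cell, had r = 0.979. It was 4.34, 0 and 1.61 TPM in pods at 10 DAF, 118.6, 34.9 and 8.35 TPM at 15 DAF, and 114.0, 42.7 and 35.98 TPM at 20 DAF. Its level in grain stayed between 0.0870 and 0.891 TPM. Every pod library at 15 and 20 DAF lay above every young pod and every grain library.

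Transport genes came next. NRT1.7 (Phvul.003G070500), whose Arabidopsis namesake moves nitrate out of old leaves through the phloem, had r = 0.978. In pods it averaged 1.83 ± 0.848 TPM at 10 DAF and 11.9 ± 4.58 TPM in the oldest stage. Grain had as much of it, at 6.41 ± 3.26, 12.1 ± 6.27 and 9.16 ± 4.69 TPM at 10, 15 and 20 DAF. Over all 18 libraries the r of NRT1.7 was 0.67. PHO1 (Phvul.010G072003), a phosphate exporter in Arabidopsis, had r = 0.961 in pods and went from 1.01 ± 0.693 to 8.55 ± 2.34 TPM. Its likeness held in pods only, because grain had 12.2 to 28.2 TPM of it and r was 0.15 over all 18 libraries. An MtN21/EamA-like transporter gene (Phvul.002G072950) had r = 0.970 and went from 0.767 ± 0.231 to 16.7 ± 13.5 TPM.

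The remaining pod genes of the list were a CcdA gene and 2 transcription factors. CcdA (Phvul.011G155100), which in plants passes reducing power into the thylakoid for cytochrome assembly, had r = 0.974 and went from 5.62 ± 2.00 to 20.8 ± 7.09 TPM. An AP2-type factor described as integrase-type (Phvul.001G084000) had r = 0.964. It was at most 0.550 TPM in pods at 10 DAF and at most 0.180 TPM in grain, against 30.3, 14.4 and 1.58 TPM in pods at 15 DAF and 41.1, 26.0 and 15.8 TPM at 20 DAF. ANAC087 (Phvul.001G100500), a NAC factor that promotes the death of root cap cells in Arabidopsis, had r = 0.956 over pods and 0.915 over all libraries. It was 1.84, 1.23 and 1.33 TPM in pods at 10 DAF, 23.0, 25.2 and 4.04 TPM at 15 DAF, and 49.8, 9.12 and 16.6 TPM at 20 DAF, and grain stayed at or below 1.85 TPM.

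Over all 18 libraries the genes most like DMP2 were a basic helix-loop-helix factor (Phvul.002G311700, r = 0.923), the beta-glucosidase BGLU41 (Phvul.011G145900, r = 0.920) and ANAC087. The family member Phvul.006G181900 stood next at r = 0.914. BGLU41 was at most 0.257 TPM in pods at 10 DAF, and 10.1, 3.43 and 1.22 TPM at 15 DAF and 35.4, 3.34 and 13.1 TPM at 20 DAF. The helix-loop-helix gene was expressed everywhere and moved far less, from 22.3 ± 7.18 TPM in pods at 10 DAF to 61.8 ± 18.8 TPM at 20 DAF.

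The other 4 were genes of lipid, starch and protein breakdown and a remorin. The lipase gene MPL1 (Phvul.001G095000), named in Arabidopsis for its induction by aphids, had r = 0.906 and was highest at 15 DAF, at 73.9 ± 44.4 TPM. The beta-amylase BAM1 (Phvul.004G143600), an enzyme of starch breakdown in plastids, had r = 0.903 and went from 8.97 ± 2.29 TPM in pods at 10 DAF to 115 ± 72.2 TPM at 20 DAF, while grain stayed between 4.19 and 9.17 TPM. RD19 (Phvul.009G013600), a papain-type protease, had r = 0.901 and was by far the most abundant, at 257 ± 106 TPM in pods at 10 DAF and 1979 ± 1352 TPM at 20 DAF. The remorin gene (Phvul.007G253600), of a plasma membrane protein family, had r = 0.897.

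**Figure D3:**
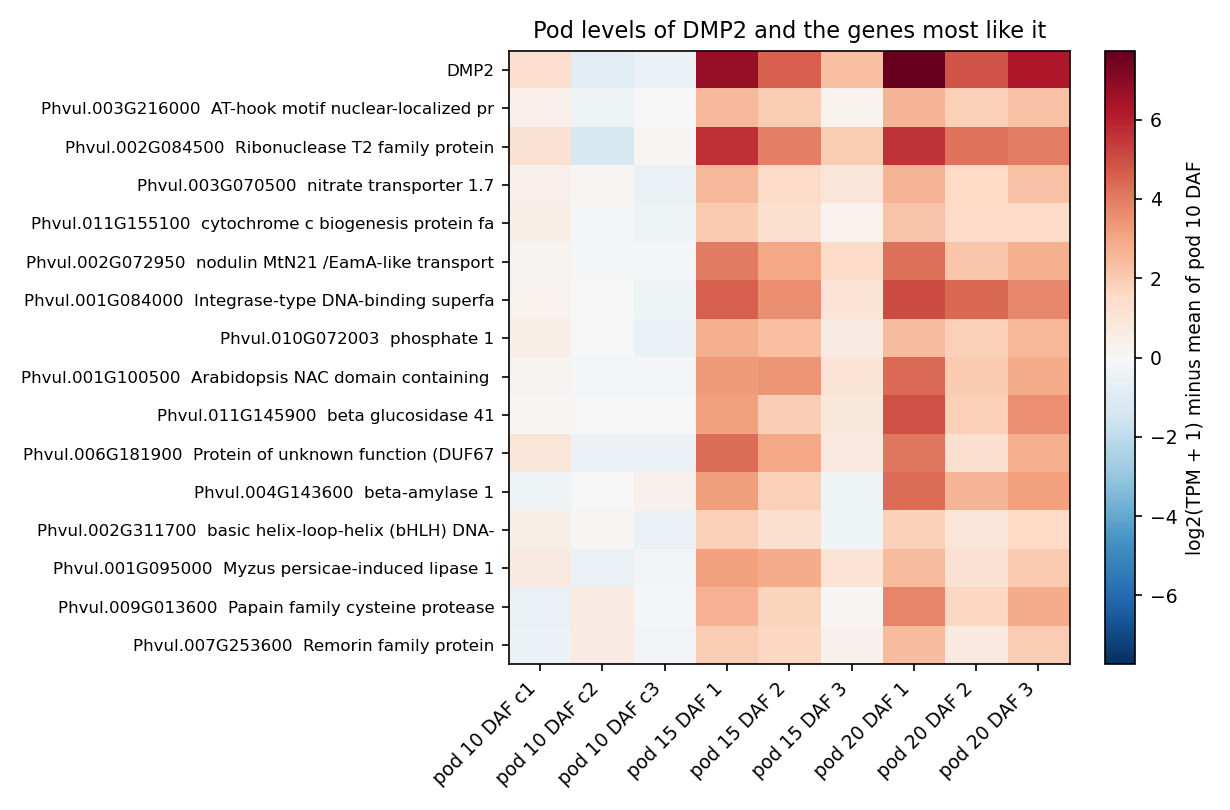
Levels in the 9 pod libraries of DMP2 (top row) and of the 15 genes most like it, ordered by r over pods, as log2(TPM + 1) minus the mean of the 3 libraries of pod 10 DAF. Red is higher than at 10 DAF. Replicate 1 of 15 DAF and replicate 1 of 20 DAF are the darkest columns for DMP2, and replicate 3 of 15 DAF, whose column summed to 436072 TPM, is the palest of the later libraries.

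With stage means removed, r between these 15 genes and DMP2 over the 9 pod libraries was between 0.63 (the remorin gene) and 0.987 (Phvul.006G181900). Of all genes of that level 29.2% had such an r of at least 0.63, and the 15 were chosen by r over the same libraries, so nothing is read from these values. Which genes made the top 8 depended on scaling. After rescaling each column to the same sum 6 of the 8 stayed in the list of 18 libraries and 5 in that of pods, and after median-ratio scaling 5 and 4. Without pod 15 DAF replicate 3, the pod list kept 6.

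Cupin and oleosin markers of the grain were low in pods when set against grain of 20 DAF. The 8 cupin storage protein genes were together at 15.2 to 72.2 TPM in pods at 10 DAF, 15.5 to 72.6 TPM at 15 DAF and 22.3 to 47.2 TPM at 20 DAF, against 102221 to 135265 TPM in grain at 20 DAF. The 4 oleosin genes of oil bodies summed to 25.2 to 47.1 TPM in the youngest pods. Their sum was 9.41 to 18.5 TPM in pods of 15 DAF and 36.9 to 83.6 TPM in those of 20 DAF, against 7099 to 9115 TPM in grain at 20 DAF. None of these 12 genes was at 0 in every pod library. The wider list of 90 storage, oil body and LEA genes, of which 23 were at 0 in every pod library, summed to 1260 to 1439 TPM in pods at 10 DAF and 996 to 1197 TPM at 20 DAF. In grain this list summed to 1892 to 4737 TPM at 10 DAF and 142292 to 161612 TPM at 20 DAF, so it separated the tissues far less at 10 DAF. In pods, 30 light-harvesting genes, a sign of green tissue, summed to 13681 to 35141 TPM in the youngest stage. Their sum was 7331 to 14722 TPM in pods of 15 DAF and 2993 to 10044 TPM in those of 20 DAF. The 34 secondary wall genes, of which 3 were at 0 in every pod library, summed to 1302 to 1440 TPM, 701 to 2000 TPM and 1276 to 1756 TPM at these stages. Over the 9 pod libraries the r of DMP2 with the log2 of these sums was -0.21 for the 90 grain genes, -0.51 for the light-harvesting genes and 0.37 for the wall genes, as a description. The part of grain, green or woody tissue in the level of DMP2 was not tested.

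Pathways of ageing and cell death were read in pods at 20 against 10 DAF from 6 lists set by words in the descriptions. Of all genes tested, 12.1% were called in this comparison, 5.38% higher and 6.72% lower, and the median log2 difference was 0.10. At an unadjusted p under 0.05, 13.2% of all genes were higher and 12.7% lower. Taken over the lists, 143 of 184 matched genes passed the filter, and 14 rose and 14 fell.

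Of 29 senescence genes that passed the filter, out of 56 matched, 5 rose and 2 fell, with a median log2 difference of 0.24, and 8 were higher and 3 lower at an unadjusted p under 0.05. WRKY75 (Phvul.001G088200), a factor that promotes leaf ageing in Arabidopsis, was 0.551, 20.6 and 5.13 TPM at 10 DAF and 267.4, 307.8 and 120.0 TPM at 20 DAF (log2 difference 5.19, SE 0.69, limma adjusted p = 5.89e-05). It rose like DMP2, but its highest pod library at 20 DAF was replicate 2, where DMP2 was lowest. A NAP gene (Phvul.003G045600), a NAC factor that also promotes leaf ageing in Arabidopsis and was picked after its values were seen, was 1.17, 1.93 and 1.33 TPM at 10 DAF and 62.4, 15.7 and 13.0 TPM at 20 DAF (log2 difference 3.32, SE 0.45, limma adjusted p = 6.56e-05). The other genes that rose were Phvul.L001659, described as senescence- or dehydration-associated, and the WRKY69 genes Phvul.001G213600 and Phvul.005G093800, which the search words took in by their number. Without WRKY65 and WRKY69 the counts were 3 of 26 higher and 2 lower. The senescence- or dehydration-associated gene Phvul.002G308900 fell from 5.34 ± 2.05 to 1.43 ± 0.208 TPM (log2 difference -1.33, SE 0.30, limma adjusted p = 0.00505). The most abundant member, SAG21 (Phvul.006G107900), was 96.0, 1475 and 69.9 TPM at 20 DAF and 22.6, 394.3 and 29.5 TPM at 10 DAF, and did not pass (log2 difference 1.72, limma adjusted p = 0.290), except without pod 10 DAF c2 (3.01, limma adjusted p = 0.0257).

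Of 11 genes matched by chlorophyll breakdown words 2 rose and 0 fell, with a median of 0.61, and 5 were higher and 0 lower at an unadjusted p under 0.05. The words also took in Phvul.008G161000 and Phvul.008G167850, which carry the alias CAO and matched by their family name. In a narrower list 2 of 9 genes rose and 0 fell, with a median of 0.93. PAO (Phvul.011G086700), the enzyme that opens the chlorophyll ring, was 19.4, 28.2 and 26.0 TPM at 10 DAF and 132.1, 48.2 and 84.1 TPM at 20 DAF (log2 difference 1.71, SE 0.46, limma adjusted p = 0.0186). The pheophytinase gene PPH (Phvul.011G013400), whose enzyme removes the phytol tail and which was named after its values were seen, rose from 4.00 ± 3.04 to 11.01 ± 4.14 TPM (log2 difference 1.36, SE 0.40, limma adjusted p = 0.0302). Without pod 10 DAF c1 or pod 20 DAF replicate 1 both calls were lost (limma adjusted p = 0.0865 and 0.104 for PAO, 0.129 and 0.121 for PPH). That of PPH was also lost without c2 (0.105), without pod 20 DAF replicate 3 (0.0888) and with a pseudocount of 0.1 TPM (0.105). The count of list genes higher was 0 without c1 or pod 20 DAF replicate 1, 1 without c2 or pod 20 DAF replicate 3, 4 without pod 15 DAF replicate 1 or 3, and 5 without pod 20 DAF replicate 2. The most abundant member, NYE1 (Phvul.002G153100), which starts chlorophyll breakdown, was 82.7 ± 9.01 TPM at 10 DAF and 408.8, 127.0 and 228.3 TPM at 20 DAF. It missed the threshold (log2 difference 1.46, SE 0.48, limma adjusted p = 0.0543). It passed in 7 of 26 alternatives, among them rescaling the columns to the same sum (0.0140), median-ratio scaling (0.0379) and leaving out pod 15 DAF replicate 3 (0.0252).

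Of 18 cell death genes 3 rose and 0 fell, with a median of 0.56, and 6 were higher and 2 lower at an unadjusted p under 0.05. Metacaspase 9 (Phvul.001G101400), a protease active in dying xylem cells of Arabidopsis, was 25.3, 20.5 and 71.5 TPM at 10 DAF. It reached 462.3, 355.9 and 66.5 TPM in pods of 15 DAF and 892.7, 145.8 and 269.5 TPM in those of 20 DAF. Its log2 difference at 20 against 10 DAF was 3.25 (SE 0.75, limma adjusted p = 0.00640). Within both later stages its libraries stood in the same order as those of DMP2, as they did for 18.0% of all genes kept. The r with DMP2 over the 9 pod libraries was 0.913 for metacaspase 9. It was -0.41 for each of the xylem cysteine peptidase genes XCP1 (Phvul.009G008200) and XCP2 (Phvul.009G008100) of this list, neither of which was called. The vacuolar processing enzymes cut proteins in the vacuole and take part in cell death, and 2 of their genes were named after their values were seen. Gamma-VPE (Phvul.001G033500) rose from 41.4 ± 27.3 to 277 ± 257 TPM and beta-VPE (Phvul.003G217500) from 53.9 ± 38.3 to 359 ± 211 TPM (limma adjusted p = 0.00881 and 0.00639). Without pod 10 DAF c1 their adjusted p was 0.0572 and 0.0525 (limma), and that of gamma-VPE was 0.0603 without pod 20 DAF replicate 1. Without pod 20 DAF replicate 2 the count higher was 5, and without c2 2 genes were lower. The most abundant member, a Bax inhibitor-1 family gene (Phvul.006G157400) of a group that holds back cell death, was 685 ± 142 and 611 ± 132 TPM, with a limma adjusted p of 0.855.

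Of 38 autophagy genes 3 rose and 0 fell, or 7.89% against 12.1% of all genes, with a median of 0.49, and 12 were higher and 0 lower at an unadjusted p under 0.05. ATG8C (Phvul.006G149640), of the proteins that coat the autophagosome, rose from 6.83 ± 1.19 to 16.4 ± 4.13 TPM (limma adjusted p = 0.0382), and ATG18F (Phvul.005G091300) from 2.31 ± 0.554 to 8.15 ± 3.48 TPM (limma adjusted p = 0.0206). Both were named after their values were seen, and both calls were lost without pod 10 DAF c1, without c3 and without pod 20 DAF replicate 1 (limma adjusted p = 0.0607 to 0.158). That of ATG8C was also lost without pod 20 DAF replicate 3 (0.0589) and grain 15 DAF replicate 2 (0.0529), with a pseudocount of 0.1 TPM (0.0548), and after median-ratio scaling, where its log2 difference was 0.96. The count higher was 1 without c1, c3 or pod 20 DAF replicate 1, and 6 without c2. The third, Phvul.007G279000 (20.1 ± 8.12 to 83.1 ± 37.2 TPM, log2 difference 1.96, limma adjusted p = 0.000995), carries the alias APG1 but is the plastid methyltransferase VTE3, as is the most abundant member, Phvul.007G175500. With such aliases left out, 2 of 24 genes rose and 0 fell.

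Of 15 genes matched by abscission and dehiscence words 0 rose and 6 fell, with a median of -0.87, and 0 were higher and 7 lower at an unadjusted p under 0.05. Of the 6, 4 were inhibitors of fungal polygalacturonases (PGIP1), whose copies may share reads. In the narrower list, without any PGIP1 gene, called or not, 2 of 9 genes fell. The count lower was 2 without c1, 3 without c3 and 3 without pod 20 DAF replicate 1. PGIP1 Phvul.002G201600 went from 43.4, 4.19 and 4.31 TPM to 0.475, 0.198 and 0 TPM (log2 difference -3.14, SE 0.59, limma adjusted p = 0.00136), and the most abundant, Phvul.002G201800, from 685 ± 390 to 157 ± 57.3 TPM (limma adjusted p = 0.0244). The other 2 were named after their values were seen. The receptor kinase gene HSL1 (Phvul.002G232600) fell from 10.8 ± 2.97 to 2.56 ± 0.591 TPM (limma adjusted p = 0.000822) and the polygalacturonase PG2 (Phvul.002G071500) from 170 ± 85.7 to 48.9 ± 32.5 TPM (limma adjusted p = 0.0257). The PG2 call was lost without c1 (0.144), without c3 (0.0833), without pod 20 DAF replicate 1 (0.111) and without replicate 2 (0.0881). That of Phvul.002G201800 was lost without c1 (0.0968), without c3 (0.123) and without pod 20 DAF replicate 1 (0.116).

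Of 32 genes that shape the ER, reticulons, RHD3 and HVA22 proteins, 1 rose and 6 fell, with a median of -0.39, and 3 were higher and 13 lower at an unadjusted p under 0.05. The reticulon Phvul.004G154000 was 9.41, 0.823 and 6.001 TPM at 10 DAF and listed at 0 in all pods at 20 DAF (limma adjusted p = 0.00168). HVA22J (Phvul.001G194060) was 1.02, 0.877 and 1.32 TPM at 10 DAF and 7.88, 2.22 and 4.19 TPM at 20 DAF (log2 difference 1.36, SE 0.43, limma adjusted p = 0.0459), a call that was lost on leaving out any of 15 of the 18 libraries, with no filter (0.0728) and with a pseudocount of 0.1 TPM (0.0593). The most abundant member, the reticulon Phvul.010G105400, was 95.2 ± 12.5 and 74.4 ± 39.0 TPM and did not pass (limma adjusted p = 0.450).

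**Figure D4:**
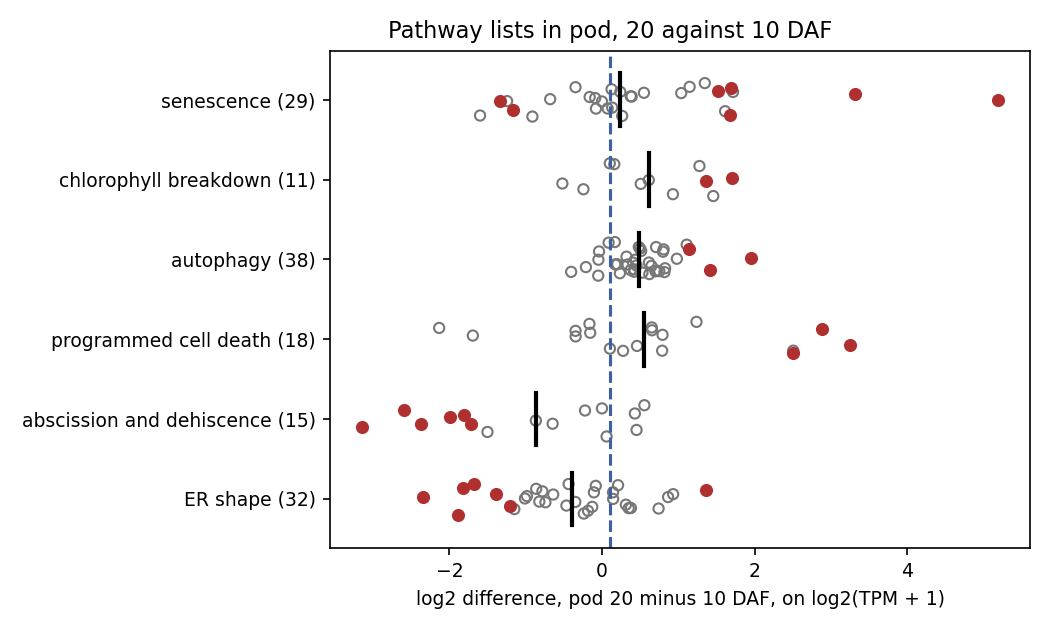
Difference in log2(TPM + 1) between pods of 20 and 10 DAF, 1 point per kept gene of 6 lists, with the number of genes in brackets. Filled points passed the test, open ones did not, the black bar is the list median and the dashed line is the median of all genes at 0.10. List medians run from -0.87 for abscission and dehiscence to 0.61 for chlorophyll breakdown, and the point farthest right is WRKY75 at 5.19.

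In grain at 20 against 10 DAF, where 52.9% of all genes were called lower and 2.67% higher, 53 of the 143 list genes fell and 4 rose. By list, 11, 0, 15, 4, 11 and 12 genes fell of the senescence, chlorophyll breakdown, autophagy, cell death, abscission and ER lists, and 2, 0, 0, 0, 0 and 2 rose. In the narrower autophagy list, without the stray aliases, 4 of 24 genes fell. In the narrower senescence, chlorophyll breakdown and abscission lists 10 of 26, 0 of 9 and 5 of 9 genes fell. After median-ratio scaling 17 genes of the full lists were lower and 17 higher, where 16.8% of all genes were called lower and 8.57% higher. Of the 11 chlorophyll breakdown matches, of which limma called 0, 1 was higher and 2 lower at an unadjusted p under 0.05. In the narrower list of 9, 1 was higher and 1 lower. WRKY75 rose in grain too, from 0.223 ± 0.176 to 6.53 ± 2.52 TPM (log2 difference 2.57, SE 0.69, limma adjusted p = 0.00345), while metacaspase 9, at 13.6 ± 7.52 and 24.8 ± 10.1 TPM, did not pass there (limma adjusted p = 0.300).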

How the data were processed

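Gene expression was measured by RNA sequencing in 18 libraries. The authors deposited TPM values in 1 table of 27420 genes with a description of each. The aligner is not given in the sources used here, nor are the counter and genome build. Read numbers cannot be had from TPM, so the depth is unknown and counting intervals could not be given. Each column was tied to a sample through the tissue, stage and number in its name. The pod 10 DAF columns are numbered 1 to 3 and the titles 3 to 5, so they were placed by group only and called c1 to c3.

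Values were used as log2(TPM + 1) for 19861 genes, those reaching 1 TPM in 3 or more libraries. This scale makes differences of low genes look smaller than they are. One fit with 6 group means in limma 3.58.1 (R 4.3.3), with the variance trend on mean level and 12 residual degrees of freedom, gave 2-sided p-values with Benjamini-Hochberg adjustment over all 19861 genes. Median-ratio scaling used the 11276 genes above 1 TPM in every library. The fit was also run on simulated data in which every value was drawn independently. In the real data the genes of a library share depth and column scale, so that run does not show how the fit performs here. With 3 libraries a side the smallest exact permutation p is 0.1, so no such test was used.

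DMP2 and the lists were chosen with earlier results of these data known. Lists were search words on the descriptions, and the narrower versions of 4 of them were worded after the descriptions had been read. Named genes were DMP2, all kept family members, the 8 described genes with the highest r to DMP2 by each measure, and of each list the largest called difference each way and the most abundant member in pods at 20 DAF. Alternatives changed the pseudocount (0.1 TPM), the filter (none, or 5 TPM), the scaling, the variance trend and the groups fitted, added a replicate block, or dropped 1 library at a time. Dropping libraries outside the groups compared was an alternative chosen once the data were known. The reference table of 34165 genes shared 0 identifiers with the expression table, so no coordinates and no sequences are given.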

Additional observations from a re-analysis of the deposited data

Results flagged for a closer look

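Changes from 10 to 20 DAF that differed between pod and grain by an interaction term in limma were picked out among the named list genes. Apart from the most abundant member of each list, these genes were named by their pod change or after their values were seen. The term reuses those pod values, so it is given as a description only. With deposited values 56.5% of all genes were called, 52.8% with the larger change in pod and 3.69% in the other direction. Values are pod change minus grain change in log2, and the median of all genes was itself 1.25 (0.13 after median-ratio scaling), because most grain values fell. The NAP gene Phvul.003G045600 differed by 3.30 (limma adjusted p = 0.000622), the VTE3 gene Phvul.007G279000 by 3.61 (limma adjusted p = 4.45e-05) and the reticulon Phvul.004G154000 by -1.94 (limma adjusted p = 0.0170). These 3 also passed after median-ratio scaling, at 2.61, 2.33 and -2.27 (limma adjusted p = 0.00515, 0.00190 and 0.0422).

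The others did not pass after that scaling. They were WRKY75 (Phvul.001G088200) at 2.62, beta-VPE (Phvul.003G217500) at 3.55, ATG8C (Phvul.006G149640) at 2.17, ATG18F (Phvul.005G091300) at 1.77, PPH (Phvul.011G013400) at 1.35, HVA22J (Phvul.001G194060) at 1.65, the reticulon Phvul.010G105400 at 1.78 and the VTE3 gene Phvul.007G175500 at 1.28. Their limma adjusted p was 0.00206 to 0.0490 with deposited values and 0.0843 or more after median-ratio scaling, where Phvul.007G175500 turned negative (-0.17).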

How the results depend on the processing

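DMP2 in pods stayed higher at 15 and 20 than at 10 DAF under every scaling and pseudocount and with any 1 library left out, with log2 differences of group means of 5.35 to 7.37 at 20 DAF, 3.54 to 6.15 at 15 DAF and 0.19 to 2.84 between these stages over the libraries left out. In grain no alternative made a DMP2 change pass. Leaving out 1 library gave 0.14 to 1.70 at 20 against 10 DAF. It gave -0.37 to 1.23 at 15 against 10 DAF, negative without grain 10 DAF replicate 2 (-0.31) or grain 15 DAF replicate 1 (-0.37). It gave -0.30 to 1.40 at 20 against 15 DAF, negative without grain 15 DAF replicate 3 (-0.30) or grain 20 DAF replicate 3 (-0.16).

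The replicate block in the 9 grain libraries left the DMP2 difference at 20 against 10 DAF at 0.93 (limma adjusted p = 0.405) and gave 6 list genes higher and 56 lower. Deviations of same-numbered grain libraries correlated at -0.11 to 0.20, against -0.28 to 0.25 for other numbers, and 5 of 9 libraries correlated best with their own number. With 3 libraries a group, these values cannot tell whether a number marks a shared plant or batch. No paired analysis was possible in pods at 10 DAF because their columns are numbered 1 to 3 and their titles 3 to 5.

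For Phvul.006G181900 in pods the difference at 20 against 10 DAF was 2.01 to 3.42 and at 15 against 10 DAF 1.86 to 3.65 over the libraries left out. The first was 2.69 and did not pass on the groups compared alone, and the second was 2.69 and did not pass with no filter. The cause was not tested. Grain minus pod at 10 DAF, near 0, ran from -0.25 to 0.47 over the libraries left out and turned positive with a pseudocount of 0.1 TPM (0.52), without grain 10 DAF replicate 2 (0.23) and without pod 10 DAF c1 (0.47).

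Of the list genes in pods, 14 higher and 14 lower became 8 and 3 on the groups compared alone and 12 and 9 with the filter at 5 TPM, both of which test fewer genes. They became 8 to 20 and 8 to 16 over the libraries left out. The lowest counts were without pod 10 DAF c1 (8 and 8) and pod 20 DAF replicate 1 (9 and 9). On the groups compared alone the calls of Phvul.002G308900, Phvul.002G201600, Phvul.002G201800, HVA22J, both VPE genes, PPH, ATG18F, ATG8C and PG2 were lost (limma adjusted p = 0.0529 to 0.143). The reticulon Phvul.004G154000 did not pass the filter there and was not tested. All genes called in pods went from 1069 higher and 1335 lower to 469 and 662 on the groups compared alone and to 619 and 855 without c1. In grain, 4 higher and 53 lower became 17 and 17 with median-ratio scaling, 16 and 23 when the top 50 genes by abundance were dropped, 3 to 5 and 43 to 58 over the libraries left out, and 4 and 35 with the narrower lists, which hold fewer genes. Depth is unknown, so values near 0 TPM cannot be given a counting error.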

Other observations

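Within pods, the libraries of DMP2 stood in the order replicate 1, 2, 3 at 15 DAF and 1, 3, 2 at 20 DAF, and this order was looked for in other genes after it had been seen. Of the 19861 genes kept, 3566 (18.0%) had both orders. Among the lists it was found in 8 of 11 chlorophyll breakdown genes, 11 of 18 cell death genes and 14 of 38 autophagy genes, and in 2 of 29 senescence genes, 5 of 32 ER genes and 1 of 15 abscission and dehiscence genes. These are the full lists, which include genes matched only by an alias or a family name. With columns rescaled to the same sum, which raises the low column of pod 15 DAF replicate 3, the order held for 959 of all genes and for 5, 8, 3, 0, 4 and 0 genes of these lists. The part of the low column sum in this order was not tested.

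The likeness to DMP2 over the 9 pod libraries also differed between the lists, in another order. The median r of the full lists was 0.69 for chlorophyll breakdown, 0.60 for autophagy, 0.47 for cell death and 0.32 for senescence genes. It was -0.35 for ER genes and -0.45 for abscission and dehiscence genes, against 0.20 for all genes kept. NYE1 (Phvul.002G153100) and metacaspase 9 (Phvul.001G101400) were the only genes of the 6 lists to reach 0.9, at 0.911 and 0.913. With stage means removed their r was 0.94 and 0.74, and that of WRKY75 (Phvul.001G088200) was -0.11, where the median over all genes with a group mean of at least 5 TPM was 0.49.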
